A study of Mus musculus with 34 samples.

Results

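RNA-seq levels of 8 genes of sterol synthesis and its control were followed in the ischemic LV (left ventricle) of mice after MI (myocardial infarction). The genes were taken by their symbols, and all 8 were found in both expression tables, among 14552 genes in the first and 17406 in the second. They encode the cytosolic HMG-CoA synthase (Hmgcs1), isopentenyl diphosphate isomerase (Idi1), squalene synthase (Fdft1), squalene epoxidase (Sqle), lanosterol synthase (Lss), lanosterol demethylase (Cyp51), the sterol-sensing retention protein INSIG1 (Insig1) and the transcription factor SREBP2 (Srebf2).

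Cells build cholesterol from acetyl-CoA through mevalonate, isoprenoids, squalene and lanosterol. When sterols in the endoplasmic reticulum are low, SREBP precursors leave for the Golgi, are cut there by proteases and enter the nucleus, where they raise transcription of the pathway's genes. When sterols are plentiful, INSIG proteins hold the SREBP escort SCAP in the endoplasmic reticulum. Heart tissue holds this machinery in cardiomyocytes, fibroblasts, endothelial cells and immune cells alike, and bulk RNA-seq does not separate them.

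The first table held 10 libraries of uninjected Swiss Webster (CFW) hearts, from 3 sham mice, 3 mice 4 h post-MI and 4 mice 24 h post-MI. The sham mice are labelled as not operated, while their names and the study's methods call them sham. The second table held 24 libraries, 2 of them sham-operated, labelled 4 h and not injected, and 22 from infarcted hearts injected in the border zone with AC or Luc modRNA (modified mRNA). For each modRNA there were 4 libraries at 4 h, 3 at 24 h and 4 at 48 h, called hearts here although no source states that each came from a separate animal. MI was made by tying off the LAD (left anterior descending) coronary artery for good, with modRNA given straight after it. Luc is luciferase, a control cargo. AC is not spelled out in the labels, and the methods do not describe the second table. No group separates injection from AC or Luc, since the sham hearts of the second table were not injected, and no treated group lacks MI.

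Values are CPM, read counts scaled to the size of each library with the TMM method. An estimated 12554489 to 18954487 reads were counted per library in the first table and 17091513 to 22192765 in the second. At this depth Sqle rested on 27 to 273 reads in the first table and 23 to 201 in the second, Lss on 29 to 162 and 40 to 231, and Hmgcs1 on 684 to 1142 and 491 to 1533. Ventricular cardiomyocyte transcripts were abundant in all libraries. In the second table, however, the transcripts Myl7 and Sln, typical of atria, summed to at most 0.291 CPM in sham and 4 h hearts, 10.9 to 168 CPM at 24 h and 1.69 to 34.1 CPM at 48 h. The 24 h libraries of that table also carry names of another pattern. The 48 h libraries carry a pattern of their own too, and their running numbers start again from those of the sham and 4 h libraries. Time and possible separate runs thus cannot be told apart in comparisons across its times, 48 h against sham included. AC and Luc were compared within a time.

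The promoter sequence of 6 of the 8 genes, as given by RefSeq on GRCm38.p6 from 250 bases before to 50 bases after the start of transcription, was searched on both strands for the SRE (sterol regulatory element), to which SREBPs bind. The SRE core TCACNCCAC occurred in 1 of the 6 promoters, that of Hmgcs1, and the looser CACNCCAC in 2, those of Hmgcs1 and Insig1, while 1.24% and 6.24% of all 32851 promoters held them. The 2 windows are shown because they are the only member sequences with the searched element before the start. Capitals mark the matched letters.
Hmgcs1: gtcaccgtcTCACCCCACttcccaggtc
Insig1: gtgtagtgtcGTGGCGTGt
The Hmgcs1 window lies on the plus strand at chr13:119690205-119690232, its match beginning 137 bases before the start. The Insig1 window lies on the plus strand at chr5:28071393-28071411, and its match, on the opposite strand, begins 9 bases before the start.

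All 6 promoters (Hmgcs1, Idi1, Lss, Cyp51, Insig1 and Srebf2) held a CCAAT box (CCAAT), found in 37.4% of all promoters, and an Sp1 GC box (GGGCGG), found in 35.7%. The palindromic E-box (CACGTG) was present in that of Insig1 alone, against 7.15% of all promoters. These are matches of letters and not measured binding. No entry was given for Sqle or Fdft1. The genes lie on mm10 at chr13:119690351-119708260 (Hmgcs1), chr13:8885606-8892396 (Idi1), chr14:63145151-63179578 (Fdft1), chr15:59315092-59331193 (Sqle), chr10:76531605-76557139 (Lss), chr5:4080674-4104697 (Cyp51), chr5:28071412-28078662 (Insig1) and chr15:82147269-82204960 (Srebf2).

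In sham hearts of the first table, the order of levels per kilobase of transcript ran from Hmgcs1 down to Lss. Hmgcs1, at the entry of the mevalonate pathway, held 10.7 CPM per kilobase, with Fdft1 at 6.69 and Insig1 at 5.10. Srebf2 at 3.72 and Cyp51 at 3.53 followed, then Idi1 at 2.24. Sqle at 0.515 and Lss at 0.447 were lowest. Among neighbours in this order, the libraries of Fdft1 and Insig1, of Srebf2 and Cyp51, and of Sqle and Lss overlapped. In the sham hearts of the second table Fdft1 was highest, at 13.1 CPM per kilobase, followed by Hmgcs1 at 7.57 and Insig1 at 6.68, and Sqle at 0.486 and Lss at 0.403 were again lowest. The tables were normalized separately, so levels were not compared between them.

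At 4 h post-MI no member passed the test against sham in uninjected hearts. None of the 8 passed limma's threshold (adjusted p under 0.05) and none had an unadjusted p under 0.05, with 2.37% of all genes tested called, 1.55% higher and 0.817% lower. The log2 differences (on the log2(CPM + 1) scale, as all below) ran from -0.15 for Cyp51 to 0.27 for Sqle. Cyp51 was the only member whose libraries did not overlap, at 10.96 to 13.3 CPM against 13.6 to 14.3 CPM in sham, and 18.0% of all genes were lower in this way. None of the 14 other cholesterol synthesis enzymes examined was called either (1 had an unadjusted p under 0.05). Among all genes, 194 were higher and 102 lower, and a split of 167 and 175 was found with equal totals per library.

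At 24 h post-MI the 8 genes split. Sqle, Lss and Idi1 were higher than in sham, Fdft1 was lower, and the other 4 did not pass the test. The 4 called of 8 compare with 66.0% of all genes tested, 35.6% higher and 30.3% lower, so the share called was not above the background. In bulk tissue, fewer cells of a type and less RNA per cell cannot be told apart in any of these values.

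Squalene epoxidase, a rate-limiting step that adds oxygen to squalene, moved most. Sqle measured 1.05, 1.49 and 1.72 CPM in the sham hearts, 1.96, 1.29 and 2.63 CPM at 4 h, and 10.2, 4.94, 5.44 and 5.63 CPM at 24 h. Each 24 h library lay above every sham and 4 h library, and 1 of them, replicate C, stood well above the other 3. The mean rose from 1.42 ± 0.34 CPM (SD, n = 3) to 6.56 ± 2.47 CPM (n = 4), a ratio of 4.62, and 35.3% of all genes lay higher without overlap. The log2 difference was 1.60 ± 0.23 (SE, limma adjusted p = 0.000101), and the call held in all 10 fits that left out 1 library.

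Lss, which closes squalene epoxide into lanosterol, followed a like course. It measured 1.05, 2.54 and 2.67 CPM in sham, 1.73, 2.30 and 1.86 CPM at 4 h, and 4.99, 5.07, 3.71 and 4.91 CPM at 24 h. The 24 h libraries again lay above all others. The difference from sham was 0.92 ± 0.20 (limma adjusted p = 0.00178), a ratio of means of 2.24, and it too held in all 10 fits.

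Fdft1, whose product joins farnesyl units into squalene just before Sqle acts, went the other way. Its values were 18.8, 29.5 and 25.9 CPM in sham, 24.0, 25.1 and 27.7 CPM at 4 h, and 12.9, 10.9, 13.1 and 10.2 CPM at 24 h. No 24 h library reached the lowest sham or 4 h library, and 28.7% of all genes were lower than sham in this way. The mean fell to 0.477 of sham, with a log2 difference of -0.99 ± 0.15 (limma adjusted p = 0.000131).

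Idi1, which makes the active isoprenoid unit, measured 7.20, 5.61 and 7.57 CPM in sham, 7.15, 7.90 and 10.2 CPM at 4 h, and 14.2, 8.26, 9.34 and 9.36 CPM at 24 h. The sham and 24 h libraries did not overlap, but those of 4 h and 24 h did. The rise over sham, 0.52 ± 0.18 (limma adjusted p = 0.0252), lost its call without 24 h replicate C (0.37, adjusted p = 0.0558) and without sham replicate H (0.40, adjusted p = 0.112).

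The other 4 members overlapped between sham and 24 h hearts. Srebf2 measured 17.1 to 20.0 CPM in sham and 19.8 to 29.5 CPM at 24 h (0.33 ± 0.14, limma adjusted p = 0.0596). Cyp51 measured 13.6 to 14.3 CPM in sham and 7.13 to 14.6 CPM at 24 h (-0.39 ± 0.19, adjusted p = 0.0801). Cyp51 was called lower without 24 h replicate C (-0.55, adjusted p = 0.00991), with median-ratio rescaling (-0.44, adjusted p = 0.041) and with array weights (-0.46, adjusted p = 0.0173), and Srebf2 higher without 24 h replicate H (0.42, adjusted p = 0.0241). Insig1 held 13.4 to 14.1 CPM in sham against 13.6 to 20.0 CPM, and Hmgcs1 35.1 to 38.9 CPM against 28.2 to 42.8 CPM, with differences of 0.16 ± 0.14 and -0.13 ± 0.14. With libraries of the same letter fitted as blocks, Cyp51 (-0.63, limma adjusted p = 0.0214) and Hmgcs1 (-0.35, adjusted p = 0.0334) were called lower. Idi1 was then not called (0.51, adjusted p = 0.075).

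**Figure D1:**
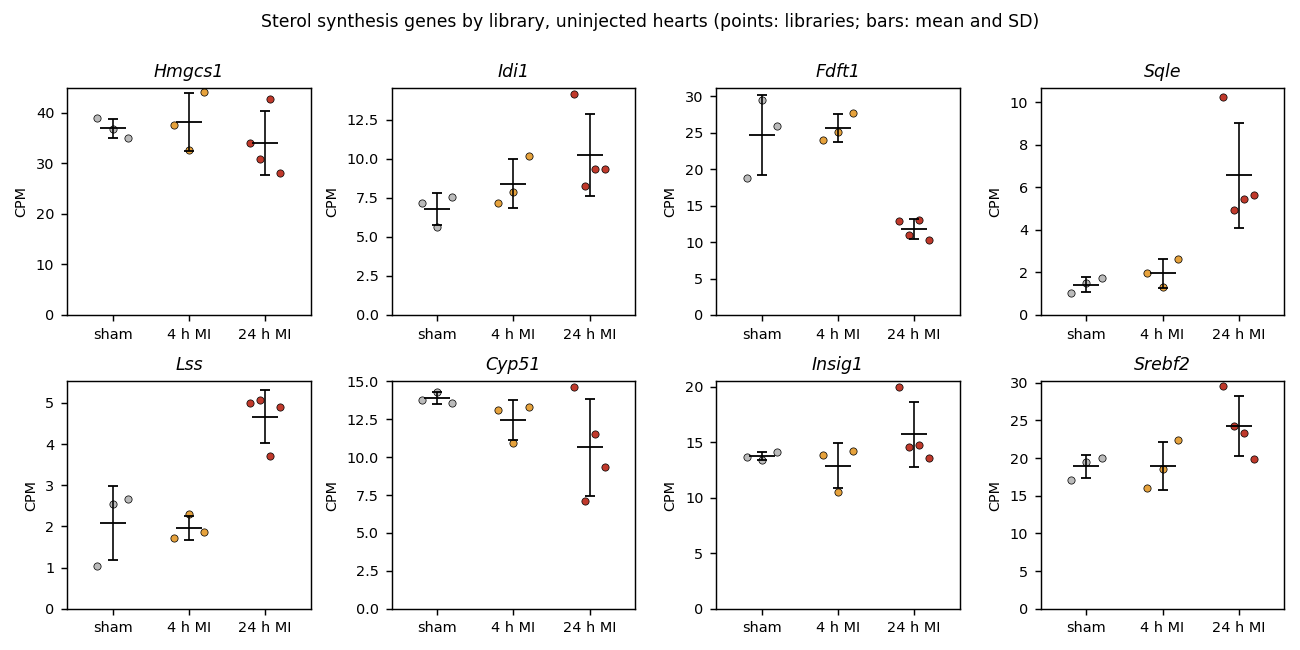
Each panel plots CPM of 1 gene in uninjected hearts (points are libraries, horizontal marks the group mean, bars the SD), with sham, 4 h and 24 h MI on the horizontal axis. Sqle and Lss sit above and Fdft1 below all sham and 4 h libraries at 24 h, while Hmgcs1 and Insig1 overlap.

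Directly between 4 h and 24 h, 3 of 8 members were called, against 63.9% of all genes (37.2% higher, 26.7% lower). Sqle was higher by 1.33 ± 0.23 (limma adjusted p = 0.000429) and Lss by 0.93 ± 0.20 (adjusted p = 0.00171), and Fdft1 was lower, at -1.06 ± 0.15 (adjusted p = 9.44e-05). None of the 3 overlapped between the times, where 37.0% of all genes were higher and 25.1% lower without overlap. All 3 were called in each of the 10 fits without 1 library.

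Of the 14 other enzymes of cholesterol synthesis, 5 were higher and 1 lower at 24 h than in sham, and 8 did not pass. Among all genes tested, 35.6% were higher and 30.3% lower, so the share called was not above the background. Msmo1, the methyl sterol oxidase acting after Cyp51, rose from 6.11 to 14.9 CPM on average (1.14 ± 0.16, limma adjusted p = 7.12e-05). Mvd, the mevalonate diphosphate decarboxylase, rose by 0.74 ± 0.20 and Hsd17b7, a sterol keto-reductase, by 0.55 ± 0.14. Dhcr7, at the last step of one branch, fell from 7.49 to 3.96 CPM (-0.79 ± 0.18, adjusted p = 0.00222). The median difference was 0.25 over the members and 0.10 over the other enzymes, against 0.04 over all genes tested.

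Cell type markers moved with these changes. All 6 neutrophil and monocyte markers were called higher at 24 h, and of 6 cardiomyocyte markers 2 (Myh6 and Ryr2) lower. Also lower were 2 of 4 endothelial (Kdr and Tek) and 2 of 4 fibroblast markers (Dcn and Tcf21). Of 5 macrophage markers 1 (Cd68) was higher. The 6 neutrophil and monocyte markers summed to 3.46 to 5.07 CPM in sham and 302 to 1776 CPM at 24 h, and the neutrophil gene S100a9 went from at most 0.470 CPM to at least 127 CPM. The 6 cardiomyocyte markers summed to 39490 to 42020 CPM in sham and 18720 to 31360 CPM at 24 h, Myh6 falling from at least 17340 CPM to at most 7568 CPM. Their part in the changes of Sqle, Lss, Idi1 and Fdft1 was not tested.

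In the hearts injected with Luc modRNA, no member passed the test against sham at 4 h. None of 8 was called or had an unadjusted p under 0.05, with 1.55% of all genes called by limma (157 higher and 37 lower, or 127 and 54 with equal totals). Hmgcs1, Fdft1, Cyp51 and Insig1 lay below both sham libraries in all 4 Luc hearts, a pattern shown by 15.3% of all genes, with differences from -0.34 (Insig1) to -0.18 (Hmgcs1). Only 2 sham hearts stood behind each value here.

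At 24 h, 4 of 8 members were called between Luc and sham hearts, against 34.1% of all genes (25.3% higher and 8.79% lower). Lss measured 1.695 and 2.06 CPM in sham and 8.42, 5.59 and 4.11 CPM in the Luc hearts, a ratio of means of 3.22 (1.25 ± 0.23, limma adjusted p = 0.000257). Insig1 measured 18.8 and 17.3 CPM in sham and 7.55, 7.81 and 7.13 CPM in Luc hearts (-1.16 ± 0.21, adjusted p = 0.000284). Lss was thus higher and Insig1 lower in all 3 Luc hearts than in either sham heart, as 37.4% and 18.5% of all genes were.

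Cyp51 fell from 19.6 and 13.8 CPM to 6.82, 7.96 and 7.45 CPM (-1.06 ± 0.28, limma adjusted p = 0.00607). Srebf2 measured 7.79 and 15.3 CPM in sham and 23.3, 15.5 and 17.1 CPM in Luc hearts (0.69 ± 0.25, adjusted p = 0.0367). Both groups were apart for these genes, but Srebf2 by little, and the sham hearts differed widely. Without sham replicate 1 the call ended for Cyp51 (-0.82, adjusted p = 0.124) and for Srebf2 (0.25, adjusted p = 0.588), leaving 2 members called. The Srebf2 call also ended without Luc replicate A (0.53, adjusted p = 0.143) or D (0.74, adjusted p = 0.0533), with equal totals (0.40, adjusted p = 0.25), with median-ratio rescaling (0.51, adjusted p = 0.0957), with array weights (0.62, adjusted p = 0.14) and with only the groups compared (adjusted p = 0.115).

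The other members of this comparison depended on the scaling. With equal totals, Hmgcs1 (-0.56, limma adjusted p = 0.0149), Idi1 (-0.77, adjusted p = 0.0185) and Fdft1 (-0.74, adjusted p = 0.00179) were also called lower in 24 h Luc hearts than in sham. Median-ratio rescaling called the same 3 genes (-0.45, adjusted p = 0.0154 for Hmgcs1, -0.68, adjusted p = 0.019 for Idi1 and -0.63, adjusted p = 0.00787 for Fdft1). The members then split into 1 higher and 5 lower, in place of 2 and 2.

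Sqle, which rose in uninjected hearts at 24 h, measured 1.86 and 0.825 CPM in sham and 1.17, 0.840 and 1.10 CPM in Luc hearts at 24 h (-0.17 ± 0.19, not called). The 6 neutrophil and monocyte markers summed to 40.9 to 79.8 CPM in these Luc hearts. The 6 cardiomyocyte markers summed to 54770 to 69790 CPM, above both sham hearts (43720 and 44530 CPM). Against sham, 4 of 6 neutrophil and monocyte, 3 of 4 fibroblast, both tested adipocyte and both atrial markers were called higher. The atrial pair had a median log2 difference of 4.28. Of 6 cardiomyocyte and 4 endothelial markers 1 each was higher, and of 5 macrophage markers 1 was higher and 1 lower. The part of these markers in the members' differences was not tested. The 2 tables were not tested against each other.

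At 48 h, 4 of 8 members were again called in Luc against sham hearts (30.1% of all genes, 13.7% higher and 16.4% lower). Fdft1 measured 44.7 and 52.6 CPM in sham and 17.0, 14.9, 15.4 and 18.2 CPM in the Luc hearts. The Luc libraries held about the same level and none came near sham (21.6% of all genes were lower without overlap), a ratio of 0.337 (-1.51 ± 0.17, limma adjusted p = 2.04e-06). Lss was higher (0.72 ± 0.21, adjusted p = 0.0134), and Cyp51 (-1.11 ± 0.27, adjusted p = 0.00331) and Insig1 (-0.85 ± 0.20, adjusted p = 0.00297) were lower. The calls of Lss (adjusted p = 0.126) and Cyp51 (adjusted p = 0.0823) ended without sham replicate 1, and with only the groups compared (adjusted p = 0.0886 and 0.0822). The call of Lss also ended with array weights (0.54, adjusted p = 0.17). Sqle was not called (0.41 ± 0.18, adjusted p = 0.0905), but it was called higher with equal totals (0.54, adjusted p = 0.0264) and without Luc replicate 3 (0.51, adjusted p = 0.046). Its difference ran from 0.09 to 0.74 when 1 library was left out. Hmgcs1 (0.20 ± 0.15), Idi1 (0.22 ± 0.21) and Srebf2 (0.36 ± 0.24) were not called. All 6 neutrophil and monocyte markers were called higher in these hearts than in sham (126 to 373 CPM in sum against 3.47 and 22.4 CPM), and their part was not tested.

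Between the times, Luc hearts moved from 4 h to 24 h in Lss (1.29 ± 0.19, limma adjusted p = 3.76e-05), Cyp51 (-0.72 ± 0.23, adjusted p = 0.0216) and Insig1 (-0.82 ± 0.18, adjusted p = 0.0015). These are 3 of 8 members, against 32.3% of all genes (24.5% higher, 7.8% lower). None of the 3 overlapped, where 32.9% of all genes were higher and 15.5% lower without overlap. The call for Cyp51 ended without 24 h Luc replicate A (adjusted p = 0.0736) or D (adjusted p = 0.0531). With equal totals, median-ratio rescaling or only the groups compared, 5 members were called, 1 higher and 4 lower, Idi1 and Fdft1 being the 2 gained. Both atrial and 2 of 4 fibroblast markers were called higher at 24 h than at 4 h, and 2 of 4 red blood cell markers lower. Higher too were 1 of 6 cardiomyocyte and 1 of 6 neutrophil and monocyte markers. Of 5 macrophage markers 1 was higher and 1 lower. The part of these markers was not tested.

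From 24 h to 48 h, 5 of 8 were called, against 41.9% of all genes (9.32% higher, 32.6% lower). Fdft1 fell, from 34.8, 35.5 and 36.1 CPM (-1.07 ± 0.15, adjusted p = 2.27e-05), and Idi1 (0.75 ± 0.18), Sqle (0.58 ± 0.16) and Hmgcs1 (0.46 ± 0.13) rose. These 4 did not overlap between the times, where 8.6% of all genes were higher and 32.4% lower without overlap. Insig1 did not overlap either but was not called (0.31 ± 0.18, limma adjusted p = 0.162). It was called higher with equal totals (0.74, adjusted p = 0.00408) and with median-ratio rescaling (0.53, adjusted p = 0.018). All 6 cardiomyocyte markers and both atrial ones were called lower at 48 h than at 24 h, and 4 of 6 neutrophil and monocyte and 3 of 5 macrophage markers higher. Their part in these changes was not tested.

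Lss fell back between 24 h and 48 h (-0.52 ± 0.19, limma adjusted p = 0.0292), but its libraries overlapped. The call ended without 24 h Luc replicate A (-0.29, adjusted p = 0.232) or C (adjusted p = 0.0546), or 48 h Luc replicate 2 (adjusted p = 0.0953) or 4 (adjusted p = 0.0809), with equal totals (-0.14, adjusted p = 0.594), with median-ratio rescaling (-0.32, adjusted p = 0.196) and with only the groups compared (adjusted p = 0.132). The comparisons across times depend on the scaling of the libraries. The median of all genes was -0.25 between 48 h and 24 h, and with each library rescaled by the median ratio it was -0.03. That rescaling turned the split of called genes from 1170 higher and 4088 lower into 2003 and 2085, and equal totals gave 3255 and 945. For 24 h Luc against sham the split of 3172 and 1103 became 2294 and 2047 (1836 and 2483 with equal totals), and for 24 h against 4 h the 3079 and 979 became 1969 and 1789 (1708 and 1839). For 48 h against sham, 1714 and 2060 became 2502 and 1286 with equal totals. No called member changed direction under either.

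AC and Luc hearts, both injected, were then compared within each time. At 4 h none of the 8 members was called and none had an unadjusted p under 0.05 (limma called 0.00796% of all genes). At 24 h the same counts held, also with 0.00796% of all genes called. All members overlapped at 4 h. At 24 h Sqle alone was apart, at 1.35, 1.43 and 1.38 CPM in AC and 1.17, 0.840 and 1.10 CPM in Luc hearts (0.23 ± 0.17, adjusted p = 0.991), where 2.41% of all genes lay higher in this way. The remaining differences ran from -0.38 ± 0.23 (Srebf2) to 0.22 ± 0.25 (Cyp51) at 24 h, and from -0.08 ± 0.19 (Srebf2) to 0.18 ± 0.16 (Insig1) at 4 h.

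The 24 h AC hearts were spread in some members. In AC replicates A, C and D, Fdft1 measured 45.8, 23.8 and 35.3 CPM, and Insig1 7.997, 11.8 and 6.81 CPM with C highest. In Cyp51 (11.26, 8.387 and 7.055 CPM) and Srebf2 (15.64, 13.85 and 12.22 CPM) replicate A was highest and C lay between A and D. The highest S100a9 and Cxcr2 of the 24 h modRNA hearts, 154 and 26.7 CPM, were those of AC replicate C. Any link of these markers to the spread of the members was not tested.

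At 48 h, Sqle, Idi1 and Cyp51 were higher in AC than in Luc hearts. These 3 of 8 members compare with 15.3% of all genes called, 12.1% higher and 3.27% lower, and no member was lower. Sqle measured 3.19, 4.84, 3.74 and 4.17 CPM in AC and 2.52, 1.87, 1.49 and 2.41 CPM in Luc hearts. Every AC heart lay above every Luc heart. The means were 3.99 ± 0.70 and 2.07 ± 0.48 CPM (SD, n = 4 each), a ratio of 1.93 (0.70 ± 0.15, limma adjusted p = 0.00324), and the call held in all 24 fits that left out 1 library. With same-numbered libraries fitted as blocks, however, no member was called at 48 h (limma adjusted p = 0.0878 for Sqle, 0.155 for Idi1 and 0.105 for Cyp51). Only numbers 1, 2 and 4 occur in both groups at 48 h, so that fit drew nothing from AC replicate 5 or Luc replicate 3. Pairing and the loss of these libraries cannot be told apart in it.

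Idi1 measured 12.3, 11.7, 10.3 and 11.2 CPM in AC and 6.46, 7.74, 4.34 and 8.85 CPM in Luc hearts, again without overlap, as 15.5% of all genes showed. The AC hearts were close together (SD 0.84 CPM) and the Luc hearts more spread (SD 1.93 CPM), with replicate 3 lowest. The ratio of means was 1.66 (0.69 ± 0.17, limma adjusted p = 0.00918).

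Cyp51 measured 11.3, 14.3, 14.1 and 14.9 CPM in AC and 5.58, 8.85, 3.78 and 12.6 CPM in Luc hearts. Luc replicate 4 overlapped the AC hearts, and the others lay below. The ratio of means was 1.77 (0.85 ± 0.22, limma adjusted p = 0.0115). Leaving out Luc replicate 3, the lowest in all 3 genes, ended the calls of Idi1 (0.52, adjusted p = 0.0509) and Cyp51 (0.60, adjusted p = 0.0628), so that 1 member was called. With only the groups compared, Cyp51 was not called (adjusted p = 0.0684).

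The 5 other members overlapped at 48 h. Srebf2 measured 17.2 to 23.9 CPM in AC and 11.01 to 20.1 CPM in Luc hearts (0.46 ± 0.19, limma adjusted p = 0.109), and it was called without Luc replicate 4 (0.61, adjusted p = 0.0284). Insig1 held 11.5 to 13.2 CPM against 8.50 to 12.3 CPM, and Hmgcs1 30.6 to 37.3 CPM against 26.3 to 33.0 CPM. Fdft1 was at 15.6 to 16.2 CPM and 14.9 to 18.2 CPM, with a difference of -0.04 ± 0.14. Lss, at 2.51 to 3.52 CPM and 2.89 to 4.94 CPM, had the only other negative difference (-0.26 ± 0.17, adjusted p = 0.331).

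**Figure D2:**
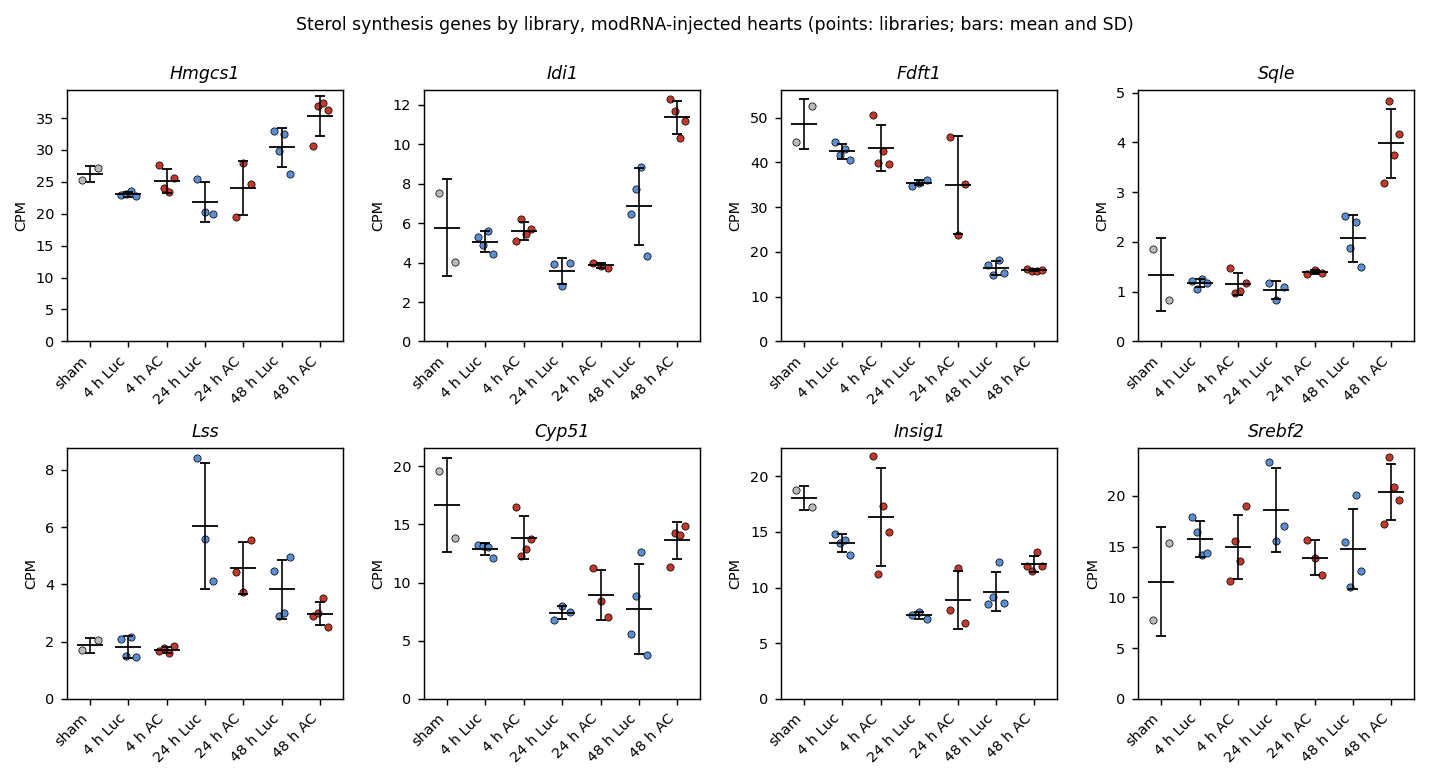
CPM of each gene is plotted by library in the second table (points are libraries, bars the mean and SD, sham grey, Luc blue and AC red), with group and time on the horizontal axis. At 48 h the 4 AC hearts lie above the 4 Luc hearts in Sqle and Idi1, while Fdft1 is low in both.

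**Figure D3:**
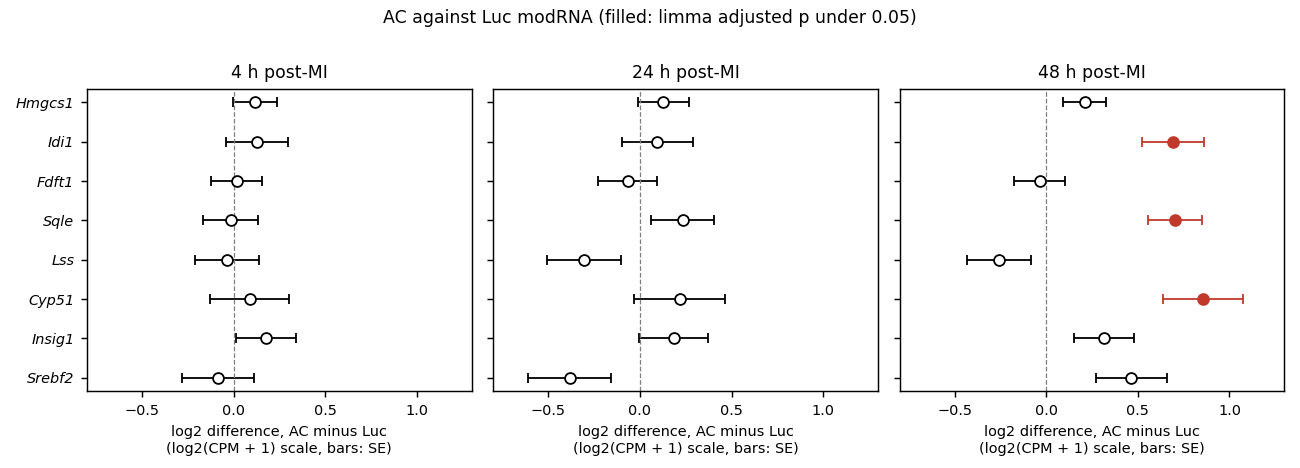
The AC minus Luc difference of each gene on the log2(CPM + 1) scale (points, with SE bars) is shown at 4, 24 and 48 h, filled where limma's adjusted p was under 0.05. Filled points appear at 48 h alone, for Idi1 (0.69), Sqle (0.70) and Cyp51 (0.85).

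The median of all genes was 0.14 at 48 h and 0.00 after median-ratio rescaling, which turned 1516 higher and 410 lower genes into 823 and 802. The 3 members stayed called under it, at 0.60 (Sqle), 0.56 (Idi1) and 0.72 (Cyp51).

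The change of the AC against Luc difference between times was tested directly, and no member passed (limma called 3.35% of all genes from 4 h to 48 h, 2.88% higher, 2.56% from 24 h to 48 h, 2.23% higher, and 0.00796% from 4 h to 24 h). Median-ratio rescaling turned the split of 362 higher and 59 lower from 4 h to 48 h into 267 and 187, and that of 280 and 42 from 24 h to 48 h into 157 and 125. From 4 h to 48 h it was 0.72 ± 0.21 for Sqle (adjusted p = 0.0616), 0.77 ± 0.31 for Cyp51 (adjusted p = 0.172) and 0.56 ± 0.24 for Idi1 (adjusted p = 0.2). From 24 h to 48 h Srebf2 had the smallest p, at 0.85 ± 0.30 (adjusted p = 0.143). At an unadjusted p under 0.05, Sqle, Cyp51 and Idi1 passed from 4 h to 48 h, and Srebf2 and Idi1 from 24 h to 48 h. Over the 3 pairs of times together, 1 change was called with equal totals, no trend, no filter or only the groups compared, that of Sqle from 4 h to 48 h. The same change was the 1 called without 48 h AC replicate 1 or either sham heart. With array weights, or without 48 h Luc replicate 4, 3 were called, Sqle and Cyp51 from 4 h to 48 h and Srebf2 from 24 h to 48 h. Whether the 48 h differences differ from those at the earlier times thus depended on the setting.

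Of the 14 other cholesterol synthesis enzymes, 5 were higher in AC hearts at 48 h, none was lower and 9 did not pass. Among all genes, 12.1% were called higher and 3.27% lower. Acat2, a thiolase at the head of the pathway, averaged 6.59 CPM in AC and 3.85 CPM in Luc hearts (0.67 ± 0.18, limma adjusted p = 0.0172), and Msmo1 differed by 0.61 ± 0.17. Nsdhl (0.55 ± 0.16) and Ebp (0.49 ± 0.16), which act on the sterol ring, and Sc5d, a sterol desaturase (0.38 ± 0.12), made up the 5. The libraries of all 5 were apart between AC and Luc, where 15.5% of all genes were higher without overlap. The 5 were named because limma called them, so this is no separate evidence. With median-ratio rescaling 1 of the 14 was called higher, and with only the groups compared 2. The median difference was 0.39 over the members and 0.39 over these enzymes, against 0.14 over all genes.

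**Figure D4:**
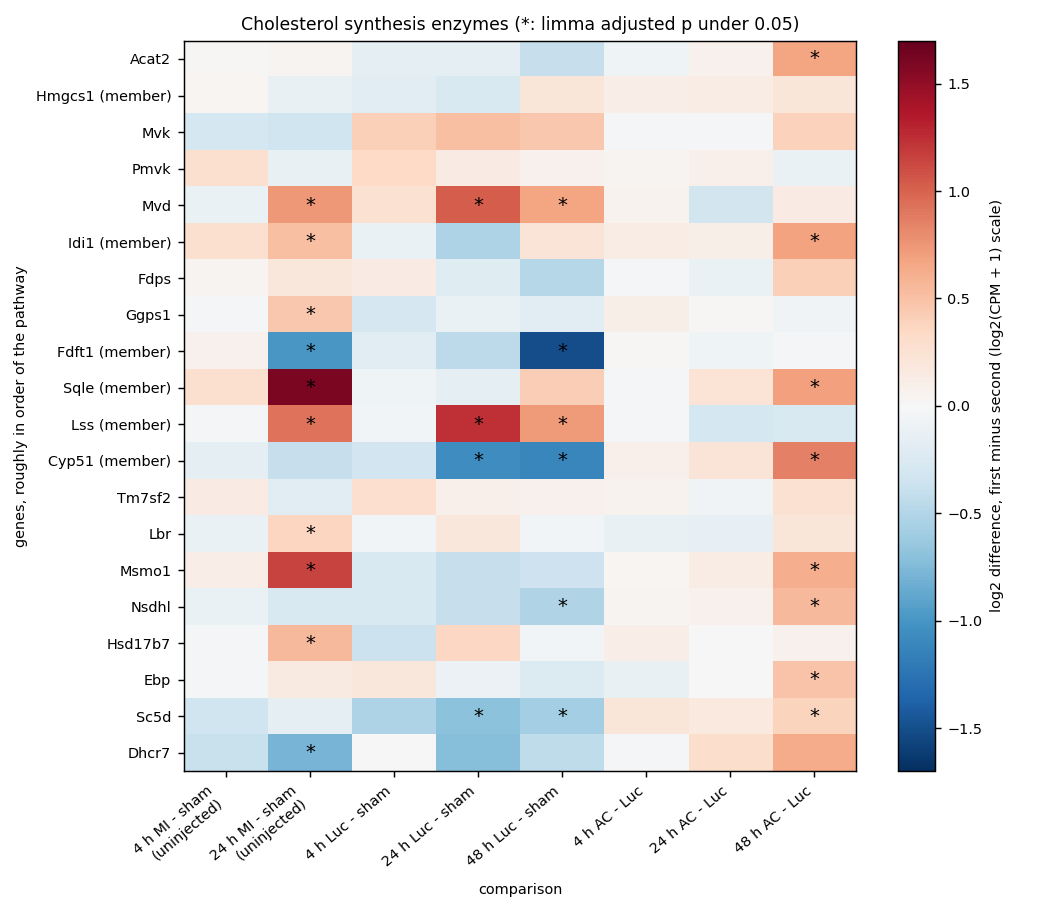
Log2 differences (colour, red higher and blue lower in the first group) of 20 cholesterol synthesis enzymes, ordered roughly along the pathway, are shown in 8 comparisons, with a star where limma's adjusted p was under 0.05. At 48 h the AC against Luc stars fall on 3 members and 5 other enzymes, all higher, while the Luc against sham columns mix Lss and Mvd higher with Fdft1, Cyp51, Sc5d and Nsdhl lower.

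Some macrophage and fibroblast markers were also higher in AC hearts at 48 h. Of 5 macrophage markers 3 were higher, with Adgre1 at 15.4 to 30.8 CPM in AC against 3.91 to 11.9 CPM in Luc hearts. All 5 summed to 171 to 227 CPM in AC and 126 to 163 CPM in Luc hearts. Of 6 neutrophil and monocyte markers 1 was called, the monocyte gene Ccr2 at 36.3 to 53.4 CPM against 6.63 to 12.0 CPM, and the list's median was -0.18. Cxcr2 held 9.65 to 15.9 CPM in AC and 12.6 to 31.4 CPM in Luc hearts, and S100a8 22.8 to 29.5 against 19.9 to 113 CPM, neither called. Of 4 fibroblast markers 2 (Col1a1 and Tcf21) were higher, with Col1a1 at 426 to 753 CPM against 87.1 to 315 CPM. Dcn (359 to 405 against 393 to 568 CPM) and Pdgfra (42.25 to 81.6 against 43.5 to 60.3 CPM) overlapped and were not called. All 4 summed to 843 to 1245 against 619 to 771 CPM. Of 6 cardiomyocyte markers 2 were lower, and the sum was 21820 to 27850 CPM against 29600 to 42080 CPM. Their part in the differences of Sqle, Idi1, Cyp51 and the other enzymes was not tested. Adipocyte markers summed to at most 7.96 CPM in both groups.

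Genes whose 7 group means in the second table were among those most like each member, by root mean square difference of centred log2(CPM + 1) over 7714 candidates, were named for description. They were Cops2 and Mtmr6 for Hmgcs1 (0.03 for both), Ostc (0.06) and Col4a5 (0.07) for Idi1, Igsf1 (0.08) for Fdft1, and Tram1 (0.07) and Slc35b4 (0.08) for Sqle. Igf1r (0.07) and Zmiz1 (0.09) were nearest to Lss, Riox2 and Fam136a (0.08 for both) to Cyp51, Rprd1a (0.08) and Psd3 (0.09) to Insig1, and Ncln (0.06) and Ccnd3 (0.07) to Srebf2. None of the 14 other cholesterol synthesis enzymes was among them. Over the 7 means, Fdft1 had the widest range (1.55) and Hmgcs1 the narrowest (0.67).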

How the data were processed

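Libraries of LV tissue (10 and 24) were grouped by their labels. The deposited CPM were made by the authors, who used STAR for alignment to mm10, assigned reads to RefSeq gene models by Partek's expectation-maximization method, so that reads may be split between like sequences, and scaled by TMM. The methods describe only the first table. The second table's deposited CPM include an added 1, which was subtracted. Per the submitters' labels libraries were stranded mRNA, and the labels and methods give different modRNA amounts, so none is given here. Of values under 1 CPM, 83.3% to 87.6% were whole multiples of 1 read within 0.05 reads, too few for a count test. Depth was estimated from the value of 1 read (0.0241 to 0.0479 CPM).

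Each table was fitted on its own, all groups in 1 model, with limma 3.58.1 in R 4.3.3 (eBayes with a trend) on log2(CPM + 1) for the 12487 and 12555 genes that averaged 1 CPM or more, all 8 members included, and p-values were adjusted by Benjamini-Hochberg over all genes tested. Whether each library of the second table was a separate heart is not stated, so p-values measure the spread between libraries, which may be technical. On simulated reads the script called 56 of 100 genes changed 2-fold and 12 of 100 changed 1.5-fold at 24 h against sham, with 1 false call, and 73 and 12 with 7 false calls at 48 h for AC against Luc. In that simulation all genes shared 1 fixed spread, few genes were changed, and genes of the lowest levels were not among those changed. These rates therefore do not give the power of the test for the members. Levels per kilobase used the GENCODE M21 transcript matched to RefSeq.

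The members and gene lists were chosen with earlier results of these data known. Named genes were the 8 members and, from each list, at most the 3 largest rises and falls called in a comparison (all called for AC against Luc). Lists covered 14 synthesis enzymes, 5 SREBP processing, 9 uptake and transport, 6 efflux and oxysterol and 8 fatty acid synthesis genes, and markers of cell types. Some genes of the pathway, and 1 of the genes most like a member, are not reported here. Same-numbered libraries deviated together with correlations from -0.206 to 0.433, of which 9 of 19 were over 0.1. These values did not settle whether the numbers pair samples. The main fit used no pairing. Alternatives were a pseudocount of 0.1, no filter, a mean of at least 10 CPM, no trend, array weights, 2 rescalings, only the groups compared, a replicate block, each library left out and, chosen after seeing the data, no 24 h libraries in the second table.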

Additional observations from a re-analysis of the deposited data

Results flagged for a closer look

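In 40 checks of members in groups of 4 libraries, 4 libraries lay far from the other 3, and chance flags about 1 in 20 groups. Sqle was 10.2 CPM in the uninjected 24 h replicate C, with 4.94 to 5.63 CPM in the others. Lss was 3.71 CPM in the uninjected 24 h replicate G, with 4.91 to 5.07 CPM in the others. Hmgcs1 was 30.6 CPM in 48 h AC replicate 1, with 36.2 to 37.3 CPM in the others. Cyp51 was 12.1 CPM in 4 h Luc replicate 4, with 13.1 to 13.2 CPM in the others.

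The change from sham differed between time points, by limma's test of the difference. In uninjected hearts the change at 24 h differed from that at 4 h by 1.33 for Sqle, 0.93 for Lss and -1.06 for Fdft1. In Luc hearts it differed between 24 h and 4 h by 1.29 for Lss, -0.72 for Cyp51 and -0.82 for Insig1. Between 48 h and 24 h it differed by 0.46 for Hmgcs1, 0.58 for Sqle, -0.52 for Lss, 0.75 for Idi1 and -1.07 for Fdft1. These values equal the direct comparisons between the times, in which the sham hearts cancel out, and are no separate evidence.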

How the results depend on the processing

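Of 88 member differences, 26 were called. Of 738 alternative fits of these 26, 707 kept direction and call, 31 lost the call and 0 changed direction, and 38 of 1781 fits of the others gained a call. The number of members called moved as follows, and the cause was not tested unless named. A mean of at least 10 CPM, which leaves 5 members tested, gave 1 for uninjected 24 h against sham (main 4), 1 for 24 h against 4 h (main 3), 2 for Luc 48 h against 24 h (main 5) and 1 for AC against Luc at 48 h (main 3). Fitting only the groups compared gave 2 for Luc 48 h against sham (main 4) and 5 for Luc 24 h against 4 h (main 3), as did equal totals (5) and median-ratio rescaling (5). The count for the change of the AC against Luc difference between times (main 0) was 1 with equal totals, no trend, no filter or only the groups compared, and 3 with array weights.

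Leaving out 1 library (a lone sham library left was assumed to vary like the other groups) gave 2 to 5 members for Luc 24 h against sham, 1 to 4 for AC against Luc at 48 h, and 0 to 3 for the change between times. Whether the replicate numbers pair samples was not settled. With the replicate block, uninjected 24 h against 4 h gave 5 members (main 3). AC against Luc at 48 h gave 0 with it (main 3), where all genes called went from 1926 to 479. Only numbers 1, 2 and 4 occur in both of these groups, so AC replicate 5 and Luc replicate 3 added nothing to that fit. With the block, Sqle (0.59, adjusted p = 0.0878), Idi1 (0.52, adjusted p = 0.155) and Cyp51 (0.56, adjusted p = 0.105) lost their call for AC at 48 h, and Idi1 for uninjected 24 h against sham (0.51, adjusted p = 0.075). In the latter comparison Cyp51 (-0.63, limma adjusted p = 0.0214) and Hmgcs1 (-0.35, adjusted p = 0.0334) gained a call as lower. The block could not be fitted for Luc 24 h and 48 h against sham and between their times. Array weights called 3178 genes and a mean of at least 10 CPM 823 for AC against Luc at 48 h. Without the 24 h libraries, chosen after seeing the data, 3 members were called at 48 h for AC against Luc.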

Other observations

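Genes of sterol efflux, uptake and fatty acid synthesis were called in both directions at 24 h post-MI in uninjected hearts. Of all genes, 66.0% were called against sham at 24 h (35.6% higher and 30.3% lower) and 2.37% at 4 h. Among 6 sterol efflux and oxysterol genes, 3 were higher and 1 lower than in sham. Ch25h, which makes an oxysterol that holds back SREBP processing, averaged 0.526 CPM in sham, 3.27 CPM at 4 h and 29.2 CPM at 24 h (4.31 ± 0.21, limma adjusted p = 8.33e-08), and it was the one gene of these lists called at 4 h (1.43 ± 0.22). Abcg1, a sterol exporter, was higher by 1.38 ± 0.19 and Cyp27a1, a mitochondrial sterol hydroxylase, lower at -1.37 ± 0.15. Among 9 uptake and transport genes, Soat1, which esterifies cholesterol, rose from 3.25 to 19.5 CPM (2.22 ± 0.21) and Npc2 by 0.83 ± 0.12, while the lysosomal exporter Npc1 (-1.65 ± 0.16) and the lipoprotein receptor Vldlr (-1.60 ± 0.20) were lower. Among 8 fatty acid synthesis genes, Elovl6 (0.75 ± 0.17), Acly (0.66 ± 0.11) and Scd1 (0.57 ± 0.22, called in 5 of 10 fits without 1 library) were higher, and Acacb (-1.68 ± 0.31) and Acss2 (-0.65 ± 0.16) lower. Of 5 SREBP processing genes Srebf1, which encodes the SREBP of fatty acid genes, was higher (0.49 ± 0.13). The neutrophil and cardiomyocyte markers moved in these hearts too.

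In Luc hearts at 4 h, Ch25h was the one gene of these lists called against sham (2.09 ± 0.43, limma adjusted p = 0.00962), where 1.55% of all genes were called. At 24 h it was higher by 3.37 ± 0.45, and Srebf1 by 1.89 ± 0.22. The fatty acid genes Scd1 (1.94 ± 0.44), Fasn (1.88 ± 0.38) and Acly (0.73 ± 0.19) were higher and Scd2 lower (-0.93 ± 0.31). Both tested adipocyte markers (median 1.20), both atrial markers (median 4.28) and 3 of 4 fibroblast markers were called higher in the same comparison, and their part was not tested. Among uptake genes 4 were higher, led by Lrp1 (2.27 ± 0.30), and 3 lower, led by Vldlr (-0.999 ± 0.17). At this time 25.3% of all genes were called higher than in sham and 8.79% lower. At 48 h, Soat1 (1.71 ± 0.26) and Lrp1 (1.65 ± 0.28) were among 3 uptake genes higher, with 3 lower, against 13.7% and 16.4% of all genes.

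Between AC and Luc hearts no gene of these 5 lists was called at 4 h or 24 h by limma, against 0.00796% of all genes at either time. An unadjusted p under 0.05 was found for none at 4 h, and at 24 h for 1 processing gene and 2 uptake genes. At 48 h 12.1% of all genes were called higher and 3.27% lower. Soat1 (0.93 ± 0.21) and Stard4 (0.69 ± 0.15), a sterol carrier, were higher and Vldlr lower (-0.43 ± 0.13) among 9 uptake genes. Scd2 (0.76 ± 0.24) and Elovl6 (0.72 ± 0.24) were higher among 8 fatty acid genes, and Mbtps1, a protease that cuts SREBPs (0.49 ± 0.15), among 5 processing genes. None of 6 efflux and oxysterol genes was called, although 3 had an unadjusted p under 0.05. With median-ratio rescaling no fatty acid or processing gene was called, 1 efflux gene was lower and 2 uptake genes were higher and 2 lower.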
